A study of Mus musculus with 8 samples.

Results

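Tight junction genes were followed in sorted distal convoluted tubules (DCT) of mice with and without the Rab GTPase-activating protein TBC1D4. The set holds 9 genes, listed by name: the claudins Cldn2, Cldn3, Cldn4, Cldn7 and Cldn8, occludin (Ocln) and tricellulin (Marveld2) in the membrane, and the cytoplasmic proteins ZO-1 (Tjp1) and cingulin (Cgn). All 9 were measured, of 18782 genes in all, each by a single probe set that the platform annotation pairs with exactly 1 symbol. The study used 4 TBC1D4-deficient and 4 wild-type samples from male C57/Bl6 mice aged 8 weeks. Controls included, the animals also carried an EGFP transgene under the parvalbumin promoter, active in the early part of the DCT, and fluorescent tubule pieces were collected with a large-particle sorter (COPAS). RNA came from tubule pieces rather than single cells, so neighbouring segments can be carried along, and the labels do not say whether each sample came from its own animal. P-values therefore measure the spread between these samples.

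Tight junctions seal the space between neighbouring epithelial cells and set what can pass between them. Claudins form the strands and decide which ions and how much water pass; some, such as claudin-2, form cation- and water-permeable pores, while others tighten the junction. Occludin and tricellulin share a membrane domain, and tricellulin sits where the corners of cells meet. ZO-1 ties the claudins to the actin cytoskeleton, and cingulin binds ZO-1 and myosin at the same plaque. Along the nephron the claudins change from segment to segment: claudin-2 is known as the claudin of the leaky proximal tubule, and claudins 3, 4, 7 and 8 as those of the tighter distal segments.

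The arrays matched their labels. Tbc1d4 had intensities of 95.6 to 122.8 in the wild-type arrays and of 4.64 to 6.59 in the TBC1D4-deficient arrays, a log2 difference of -4.27 (95% interval -4.52 to -4.02; limma adjusted p = 6.35e-08). All 8 DCT markers were bright in all arrays; Slc12a3, the sodium chloride cotransporter of this segment, ran from 11.45 to 11.56 on the log2 scale and Pvalb from 9.57 to 9.85. The DCT marker mean ran from -0.04 to 0.03 across the arrays, and the thick ascending limb mean from -0.04 to 0.04. Some single markers of the thick ascending limb varied more: Slc12a1 ran from 7.23 to 7.73 and Ptger3 from 5.11 to 5.82. Kcnj1 ran only from 10.57 to 10.66. The narrow range of this mean therefore does not show that each of its markers was steady. The mean of 17 proximal tubule markers ran from -1.05 to 0.73. Means for the collecting system, intercalated cells and endothelium ran from -0.25 to 0.19, from -0.30 to 0.39 and from -0.40 to 0.23. Of their markers 8 of 9, 7 of 8 and 12 of 12 were lower in the TBC1D4-deficient arrays, beside 50.9% of all probe sets. Markers of a list come from the same 8 arrays and are not replicates of the genotype. No marker of these lists had a limma adjusted p below 0.05. Exact permutation p-values of the means between genotypes were 0.257, 0.229 and 0.0571. Podocyte and parietal cell markers ran from -0.08 to 0.11 and stromal and immune markers from -0.12 to 0.06. Markers of other segments differed widely in level. Mean log2 values in the thick ascending limb list ran from 3.51 (Enox1) to 11.12 (Umod), with Slc12a1 at 7.49. In the proximal tubule list they ran from 5.09 (Slc5a12) to 9.60 (Slc34a1). In the collecting system list they ran from 2.32 (Elf5) to 9.69 (Tfcp2l1). Endothelial markers, the claudin left out, ran from 3.05 (Tek) to 5.27 (Emcn). How much of these signals came from segments carried along was not tested. Median intensities per array were 8.41 to 9.03, and the deposited table gives no detection call, so a value near that level cannot be told from background. Several endothelial markers lay near it, such as Tek at intensities of 6.19 to 9.59 and Kdr at 6.81 to 9.85. Emcn, at 27.0 to 49.6, lay above it.

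The start regions of 3 claudin genes are printed because their transcripts behaved differently between arrays: Cldn2 varied most, and Cldn3 and Cldn4, which are direct neighbours on chromosome 5, did not vary together. The sequences are the 250 bases before each RefSeq gene start in GRCm38.p6, 5′ to 3′ on the strand of the gene. Capitals mark TATAAA, the TATA box letters, searched on the gene strand only, and CACCTG, an E-box bound by Snail and ZEB repressors, searched on both strands (CAGGTG on the other); the motifs do not overlap each other in these windows. Windows lie at chrX:139800558-139800807 (plus strand) for Cldn2, chr5:134985964-134986213 (plus strand) for Cldn3 and chr5:134946935-134947184 (minus strand) for Cldn4.
Cldn2: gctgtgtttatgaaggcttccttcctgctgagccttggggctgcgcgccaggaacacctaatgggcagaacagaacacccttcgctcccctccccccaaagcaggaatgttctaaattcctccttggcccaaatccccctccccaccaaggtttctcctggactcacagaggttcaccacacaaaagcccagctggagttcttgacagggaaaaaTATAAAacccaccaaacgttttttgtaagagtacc
Cldn3: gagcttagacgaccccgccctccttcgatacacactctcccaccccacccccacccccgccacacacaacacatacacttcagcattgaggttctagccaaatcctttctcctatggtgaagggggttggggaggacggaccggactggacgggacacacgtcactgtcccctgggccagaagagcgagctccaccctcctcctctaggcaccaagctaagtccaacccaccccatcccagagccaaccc
Cldn4: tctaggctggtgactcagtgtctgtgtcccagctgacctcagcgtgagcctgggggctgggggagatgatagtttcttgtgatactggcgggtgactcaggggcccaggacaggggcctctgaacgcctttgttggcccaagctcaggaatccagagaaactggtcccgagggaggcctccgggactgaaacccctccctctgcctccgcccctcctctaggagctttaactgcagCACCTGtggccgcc
The Cldn2 window held TATAAA, starting 35 bases before the gene start, and no CACCTG. The Cldn4 window held CACCTG, starting 14 bases before the start, and no TATAAA, and the Cldn3 window held neither. Of the 9 genes, 8 had an entry, with 11 windows because Cldn7, Ocln and Marveld2 have 2 starts each. TATAAA stood in 1 of the 11 windows, against 7.61% of 32619 mouse windows of the same length. CACCTG stood in 3, those of Cldn4 and of the downstream starts of Cldn7 and Ocln, against 17.3% of all windows. Over the 11 windows CpG pairs ran from 4 (Cldn2) to 22 (Tjp1 and the downstream start of Ocln), with 19 for Cgn. The median over all mouse windows was 6. The Cldn2 window was 52% G or C. A match of letters is a description of the sequence and shows no binding.

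No tight junction gene of the set differed between genotypes beyond the spread of the arrays. Of the 9 genes, 0 passed the threshold of 0.05 (limma, Benjamini-Hochberg over 23039 named probe sets), beside 0.00434% of all named probe sets, which is Tbc1d4 alone. An unadjusted p below 0.05 was found for 0 of the 9, against 2.9% of all probe sets, and the smallest was 0.124, for Cldn7. The groups overlapped in all 9, while 1.85% of all probe sets had groups that did not overlap. Differences ran from -0.28 (Cldn2) to 0.13 (Cldn7) on the log2 scale, with 2 genes above and 7 below 0 and a median of -0.0195; over all probe sets 50.9% lay below 0, with a median of -0.0017. With each array centred on its median the split was 5 above and 4 below 0, and with quantile normalization it stayed at 2 above and 7 below. The count past the threshold was also 0 under each of 23 alternative settings. The 95% interval lay inside 1.5-fold for 8 of the 9 genes, as for 97.4% of all probe sets, and Cldn2 was the exception.

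**Figure D1:**
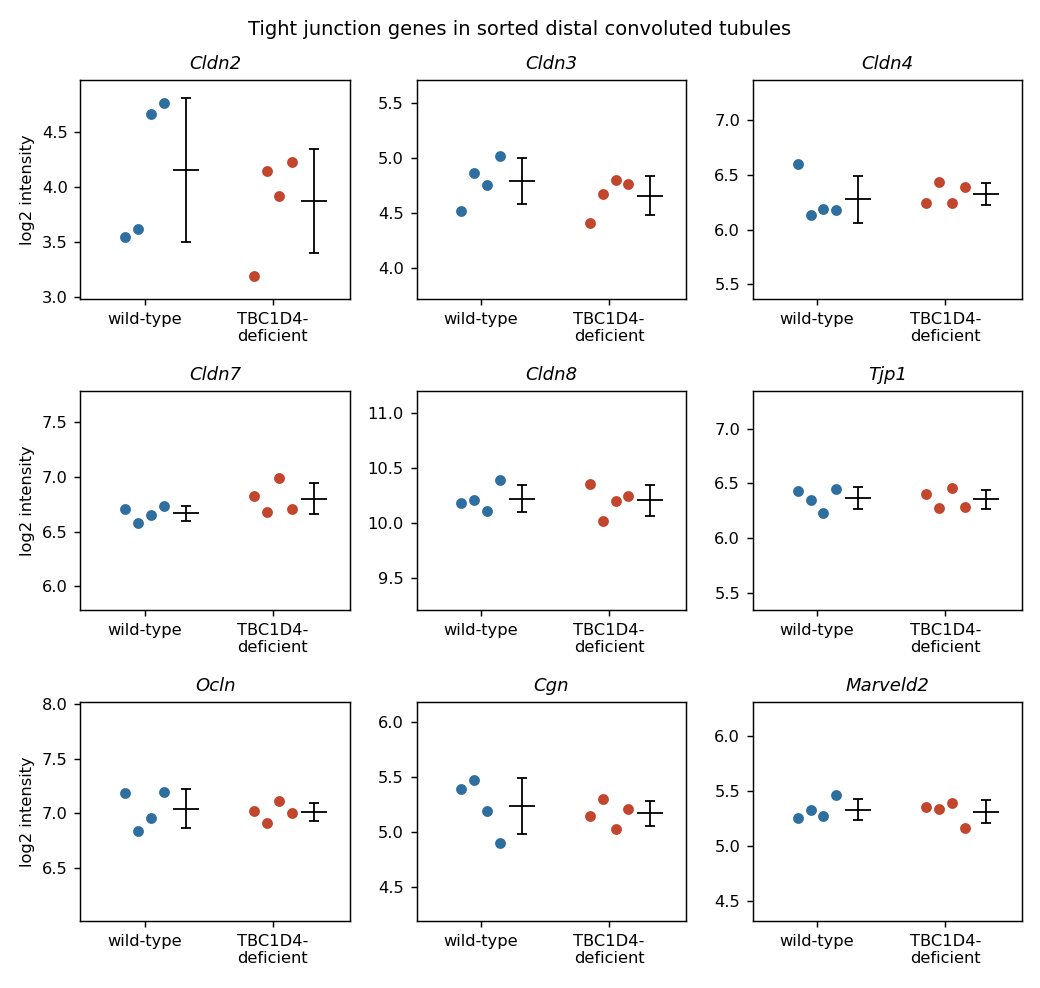
Log2 intensity of each tight junction gene (vertical axis, spanning the same 2 log2 units in every panel) in the 4 wild-type arrays (blue) and the 4 TBC1D4-deficient arrays (red), points in order of replicate number, with the mean and SD in black. The groups overlap in all 9 panels, and Cldn2 is spread over 1.58 log2 units.

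Claudin-8, a barrier-forming claudin of the aldosterone-sensitive distal nephron, gave a bright signal in every array. Cldn8 read 10.36, 10.02, 10.20 and 10.24 on the log2 scale in the TBC1D4-deficient arrays, in the order of their replicate numbers. The wild-type arrays, in the same order, read 10.18, 10.21, 10.11 and 10.39. The lowest and one of the highest arrays both lay in the TBC1D4-deficient group, so the genotypes interleaved. Linear intensities were 1037 to 1341. The log2 difference was -0.02 (SE 0.09; 95% interval -0.21 to 0.18), and the SD over the 8 arrays was 0.12, larger than that of 53.3% of all named probe sets.

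Claudin-4, which partners claudin-8 in a paracellular chloride path of the collecting duct, was set apart by a single array. Cldn4 read 6.24, 6.43, 6.24 and 6.39 in the TBC1D4-deficient arrays and 6.59, 6.14, 6.19 and 6.18 in the wild-type arrays. Wild-type replicate 1 was the highest of all 8, and the other 3 wild-type arrays were the lowest 3. The log2 difference was 0.05 (95% interval -0.18 to 0.28), and leaving out single arrays moved it from 0.0057 (without wild-type replicate 2) to 0.16 (without wild-type replicate 1). Without wild-type replicate 1 the groups did not overlap for Cldn4, 1 of the 9 genes, beside 3.96% of all probe sets with the same 3 arrays against 4. Claudin-7, which is found along the sides of distal tubule cells as well as at the junction, had the largest positive difference. Cldn7 read 6.83, 6.68, 6.99 and 6.70 in the TBC1D4-deficient arrays and 6.70, 6.58, 6.66 and 6.73 in the wild-type arrays. TBC1D4-deficient replicates 1 and 3 lay above every wild-type array, and replicates 2 and 4 lay among them. The log2 difference was 0.13 (SE 0.08; -0.04 to 0.31), with a limma adjusted p of 0.9999 and an exact 2-sided permutation p of 0.2; with 4 arrays against 4 the smallest possible is 0.0286.

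Claudin-3, a barrier-forming claudin of distal segments, was lower in intensity. Cldn3 read 4.41, 4.67, 4.80 and 4.76 in the TBC1D4-deficient arrays and 4.52, 4.87, 4.75 and 5.02 in the wild-type arrays. The first replicate was the lowest in each genotype, and wild-type replicate 4 was the highest of all. The log2 difference was -0.13 (-0.39 to 0.13). Cldn3 and its neighbour Cldn4 did not follow each other over the 8 arrays (Pearson r = -0.52, exact permutation p = 0.186; Spearman rho = -0.62, p = 0.115; r = -0.28 without the 2 arrays farthest from the median of Cldn4; Benjamini-Hochberg p = 0.61 and 0.591 over 36 pairs of genes).

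Occludin and tricellulin, the membrane proteins with a shared domain, also lie close together on chromosome 13, with 2 annotated genes between them. Ocln read 7.02, 6.92, 7.12 and 7.01 in the TBC1D4-deficient arrays and 7.18, 6.84, 6.96 and 7.19 in the wild-type arrays, so that wild-type arrays were both the highest and the lowest. The log2 difference was -0.03 (-0.23 to 0.17). Marveld2 read 5.36, 5.34, 5.39 and 5.16 in the TBC1D4-deficient arrays and 5.26, 5.33, 5.28 and 5.47 in the wild-type arrays. Its lowest array was TBC1D4-deficient and its highest wild-type, with the other 6 mixed between 5.26 and 5.39, and the log2 difference was -0.02 (-0.18 to 0.14). Across the arrays the neighbours had a Pearson r of 0.28 (exact permutation p = 0.516; Spearman rho = 0.36, p = 0.389; r = -0.14 without the 2 arrays farthest from the median of Marveld2; Benjamini-Hochberg p = 0.743 and 0.668).

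Of the plaque proteins, Tjp1 varied less than Cgn. Tjp1 read 6.40, 6.28, 6.46 and 6.29 in the TBC1D4-deficient arrays and 6.43, 6.35, 6.23 and 6.45 in the wild-type arrays. All 8 arrays lay within 0.23 log2 units of each other, the narrowest range of the set, and the log2 difference was -0.01 (-0.17 to 0.15). Cgn read 5.14, 5.30, 5.03 and 5.21 in the TBC1D4-deficient arrays and 5.39, 5.47, 5.19 and 4.89 in the wild-type arrays, so the wild-type arrays held both its highest values and its lowest. The log2 difference was -0.07 (-0.33 to 0.20), and the SD over all arrays, 0.19, exceeded that of 85.8% of probe sets. Among the 36 pairs of genes, Cldn2 and Cldn3 had the highest correlation, at r = 0.72 (exact permutation p = 0.0417). Spearman's rho for this pair was 0.60 (exact permutation p = 0.132). Without the 2 arrays farthest from the median of Cldn3 its r fell to 0.205. Tjp1 and Ocln had the second highest correlation of the 36 pairs, at r = 0.71 (exact permutation p = 0.0537; Spearman rho = 0.76, p = 0.0368; r = 0.84 without the 2 arrays farthest from the median of Ocln). It did not pass after Benjamini-Hochberg adjustment (p = 0.61 for r and 0.361 for rho), and neither did any other pair.

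**Figure D2:**
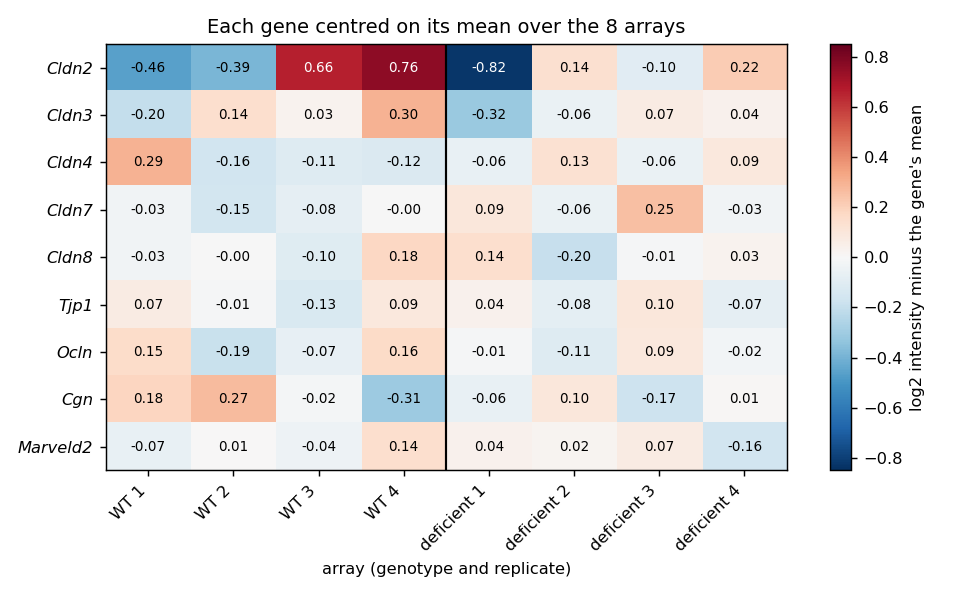
Log2 intensity of each gene in each array minus that gene's mean over the 8 arrays (colour and printed value), wild-type arrays to the left of the line and TBC1D4-deficient arrays to the right. Cldn2 spans -0.82 to 0.76, and every other gene stays between -0.32 and 0.30.

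**Figure D3:**
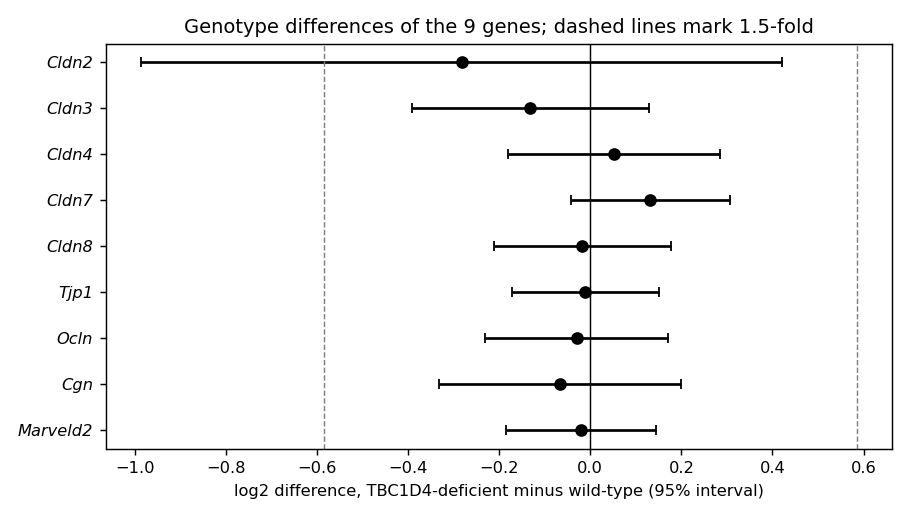
Log2 difference between TBC1D4-deficient and wild-type arrays for each gene (points) with its 95% interval from the limma fit (bars); the dashed lines stand at 1.5-fold in either direction. All 9 intervals include 0, and that of Cldn2 alone reaches past 1.5-fold.

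Cldn2, the pore-forming claudin of the proximal tubule, had the widest spread of the set. It read 3.19, 4.15, 3.92 and 4.23 on the log2 scale in the TBC1D4-deficient arrays. The wild-type arrays read 3.55, 3.62, 4.67 and 4.77. Wild-type replicates 3 and 4 were the highest of all and TBC1D4-deficient replicate 1 the lowest, with linear intensities of 25.4, 27.3 and 9.11, so the highest array was 3.0-fold above the lowest. The lowest of these values was close to the array medians of 8.41 to 9.03. The SD over the 8 arrays was 0.55, larger than that of 99.2% of all named probe sets. Between genotypes the log2 difference was -0.28 (SE 0.32; 95% interval -0.99 to 0.42; limma adjusted p = 0.9999), and a level of 0.505-fold and one of 1.34-fold are the ends of that interval. Single arrays moved this value: it was -0.06 without TBC1D4-deficient replicate 1, -0.08 without wild-type replicate 4 and -0.11 without wild-type replicate 3, and it was -0.46 without wild-type replicate 2 and -0.48 without wild-type replicate 1. The proximal tubule markers had the same sign: 17 of 17 were lower in the TBC1D4-deficient arrays, beside 50.9% of all probe sets, and 0 passed the threshold. Their differences ran from -0.55 (Cubn) to -0.03 (Pck1). The marker mean ran from -1.05 to 0.25 in the TBC1D4-deficient and from -0.60 to 0.73 in the wild-type arrays (exact permutation p = 0.543). The lowest intensity of a marker was 16.05, for Slc5a12, a lactate transporter, above the array medians.

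Cldn2 followed the proximal tubule marker mean across all 8 arrays. Pearson's r was 0.98 (exact permutation p = 7.44e-05; Benjamini-Hochberg p = 0.00268 over 36 relations of 9 genes with 4 marker lists) and Spearman's rho 0.98 (p = 0.000397; Benjamini-Hochberg p = 0.0143). Without TBC1D4-deficient replicate 1 and wild-type replicate 1, the 2 arrays farthest from the median, r was still 0.98 over 6 arrays. Without TBC1D4-deficient replicate 1 alone, r was 0.972 with a Benjamini-Hochberg p of 0.05, which no longer passed. The coefficient was also 0.98 after each genotype was centred on its own mean. Cldn2 rose by 0.87 log2 units per log2 unit of the marker mean, within the slopes of 0.70 to 1.47 (median 0.95) that the 17 markers had on the mean of the other markers. The SD of Cldn2 about this line was 0.12, against 0.55 without it. In these bulk samples fewer proximal tubule cells and less RNA per cell cannot be told apart.

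In a limma fit that also held the proximal tubule mean, the genotype difference of Cldn2 was -0.02 (95% interval -0.23 to 0.18). The term itself passed for Cldn2 (0.87 per unit, 0.69 to 1.04; limma adjusted p = 0.000287), as it did for 1.2% of all named probe sets, and for no other gene of the set. Cldn3 had the next highest slope, 0.23 (0.05 to 0.41; limma adjusted p = 0.46). The correlation of Cldn3 with the marker mean was r = 0.78 (exact permutation p = 0.0221; Benjamini-Hochberg p = 0.398; Spearman rho = 0.55, p = 0.171), and it rested on 2 arrays, since without TBC1D4-deficient replicate 1 and wild-type replicate 1 it was 0.23. Cldn8 had r = -0.24 (exact permutation p = 0.575; Spearman rho = -0.10, p = 0.84; r = 0.16 without those 2 arrays). The other 35 relations with proximal tubule, thick ascending limb, collecting system or endothelial means did not pass, and the smallest Benjamini-Hochberg p among them was 0.398.

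**Figure D4:**
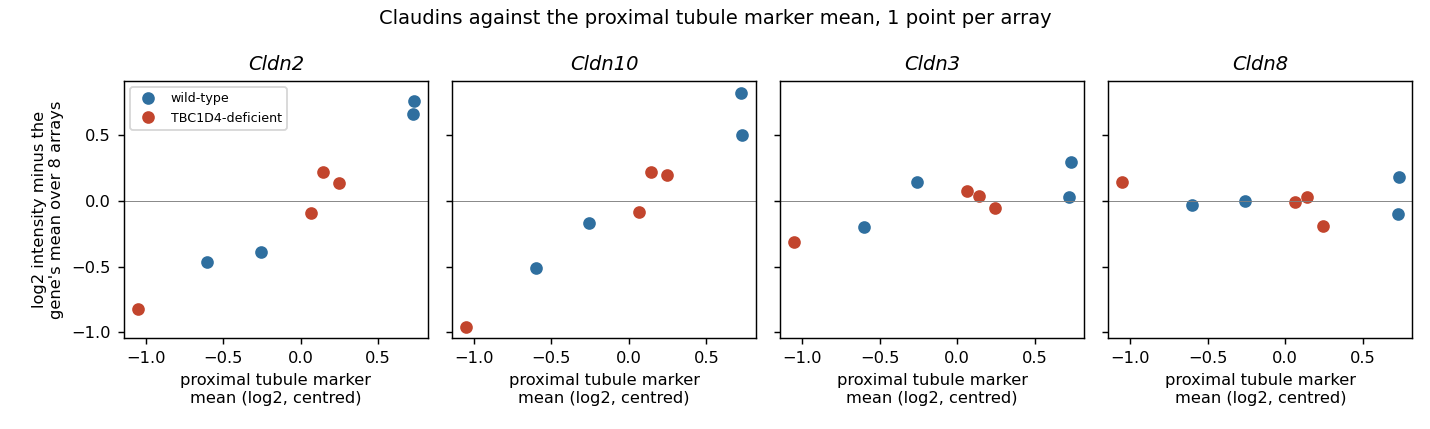
Log2 intensity of Cldn2, Cldn10, Cldn3 and Cldn8, each minus its mean over the 8 arrays (vertical axis), against the mean of 17 proximal tubule markers, centred in the same way (horizontal axis); each point is an array, blue for wild-type and red for TBC1D4-deficient. Cldn2 and Cldn10 rise along the axis in both genotypes, and Cldn8 stays between -0.20 and 0.18.

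Genes most like the members with the widest spread were taken by Pearson r over the 8 arrays, as a description. The 9093 genes compared had a mean above the median of all probe sets with 1 symbol. Predicted genes and Riken clones were left out. For Cldn2 the closest were Itgb8, an integrin subunit (r = 0.995), Gcnt1, a glycosyltransferase (r = 0.995), and Slc16a12, a monocarboxylate family transporter (r = 0.994). In each of the 3, TBC1D4-deficient replicate 1 was the lowest array and wild-type replicates 3 and 4 the highest. Gcnt1, for example, ran from 4.62 to 6.32. For Cldn3 the closest were Zdhhc12, a palmitoyltransferase (r = 0.944), Mme, the brush border peptidase neprilysin (r = 0.939), and the ribosomal protein gene Rps26 (r = 0.934). These genes were picked for their likeness, so the coefficients carry no test.

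Among 19 other measured claudins, 0 passed by genotype, 10 lay above and 9 below 0, and the median difference was 0.0052. Cldn10, whose isoforms belong to the proximal tubule and the thick ascending limb, behaved like Cldn2. It read 3.67, 4.82, 4.53 and 4.84 in the TBC1D4-deficient arrays and 4.11, 4.45, 5.44 and 5.12 in the wild-type arrays. TBC1D4-deficient replicate 1 was again the lowest and wild-type replicates 3 and 4 the highest, and the genotype difference was -0.32 (-1.03 to 0.39). Its correlation with the proximal tubule mean, chosen for description after its values were seen, was r = 0.98 (exact permutation p = 9.92e-05; Spearman rho = 0.95, p = 0.00114; r = 0.93 without the 2 farthest arrays; Benjamini-Hochberg p = 0.00188 and 0.0217 over 19 claudins), and the other 18 claudins did not pass. The probe set is not tied to an isoform in the annotation used.

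The claudins of the thick ascending limb, Cldn16 and Cldn19, which together form its cation pore, had differences of -0.09 (-0.40 to 0.23) and 0.01 (-0.34 to 0.36). Cldn16 was low in TBC1D4-deficient replicate 1, at 4.89, and lay between 5.35 and 5.57 in the other 7 arrays. Cldn12, a claudin linked to calcium permeability, stood at 0.0052 (-0.17 to 0.18). An unadjusted p below 0.05 was found for 2 of the 19, beside 2.9% of all probe sets, and both were dim. Cldn15, a cation pore of the intestine, ran from 2.75 to 3.38 in the TBC1D4-deficient and from 2.34 to 2.82 in the wild-type arrays, a difference of 0.39 (0.05 to 0.74; limma adjusted p = 0.9999). Cldn14, which blocks the pore of the thick ascending limb, ran from 2.71 to 3.33 and from 2.67 to 2.86, a difference of 0.28 (0.02 to 0.54; limma adjusted p = 0.9999). The groups overlapped for both. Cldn1 (-0.22, -0.47 to 0.03) and Cldn13 (-0.13, -0.28 to 0.02) were dimmer still, at means of 2.14 and 2.06 in wild-type arrays, and Cldn13 was the only claudin whose groups did not overlap, 1 of 19 beside the 1.85% of all probe sets; its highest TBC1D4-deficient and its lowest wild-type array both read 1.98.

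In 11 other membrane proteins of the tight junction, 5 lay above and 6 below 0, 0 passed, and the interval was inside 1.5-fold for 10. Ildr1, an angulin that recruits tricellulin to cell corners, had a difference of 0.04 (-0.09 to 0.18). F11r, the adhesion molecule JAM-A, stood at 0.07 (-0.07 to 0.21), Igsf5 at -0.02, Crb3, a polarity protein of the apical membrane, at 0.02 and Marveld3, a relative of tricellulin, at 0.10 (-0.04 to 0.24). Jam2, a junctional adhesion molecule of endothelium, had the smallest p of the list, at -0.17 (-0.31 to -0.03; limma adjusted p = 0.9999). It was dim, at 2.69 to 3.03. The endothelial marker mean was -0.40 to 0.0016 in TBC1D4-deficient arrays and 0.0002 to 0.23 in wild-type arrays (exact permutation p = 0.0571). Of its markers 12 of 12 were lower, beside 50.9% of all probe sets, and 0 passed the threshold. Several of these markers were dim too, such as Tek at intensities of 6.19 to 9.59. The part of the endothelial marker mean in the Jam2 value was not tested.

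The scaffold list held 24 measured genes, 13 above and 11 below 0, with 0 past the threshold and all 24 inside 1.5-fold. Cgnl1, the paralog of cingulin, stood at 0.08 (-0.09 to 0.25), Pard3, a polarity scaffold, at 0.12 (-0.06 to 0.30) and Arhgef18, a RhoA activator at the junction, at 0.12 (-0.02 to 0.25). Rab13, a junctional Rab GTPase, was dim, at intensities of 8.04 to 10.2, and stood at 0.075. Vapa, Ybx3 and Sympk, the brightest others of the list, had differences of -0.04, -0.0057 and 0.05. In adherens junctions and desmosomes, 13 of 19 genes lay above and 6 below 0, 0 passed and all 19 were inside 1.5-fold. Cdh1 (E-cadherin) stood at 0.05 (-0.08 to 0.17), Cdh16, the kidney-specific cadherin, at 0.02 (-0.10 to 0.14), Ctnnb1 (beta-catenin) at 0.10 (-0.04 to 0.23) and Pkp4 at 0.05. Nectin1, which was dim, stood at -0.18 (-0.37 to 0.01), Nectin2 at 0.05 and Pkp2, a desmosomal plaque protein, at 0.06.

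Regulators of the paracellular path numbered 12 above and 8 below 0 of 20 measured, with 0 past the threshold and 19 inside 1.5-fold. Wnk1, a kinase upstream of the sodium chloride cotransporter, stood at -0.03 (-0.15 to 0.09), Stk39 (SPAK) at -0.02 and Rhoa at -0.05. Cul3, a cullin that with Klhl3 targets claudin-8 for degradation, stood at -0.08 (-0.21 to 0.06). St14 (matriptase), a membrane protease of tight epithelia, stood at 0.09 (-0.03 to 0.22), its inhibitor Spint2 at 0.08 (-0.12 to 0.28) and Ovol1, a dim epithelial transcription factor, at 0.10. Over all 93 other junction genes 53 lay above and 40 below 0, with a median of 0.0132. An unadjusted p below 0.05 was found in 3 of the 93, beside 2.9% of all probe sets. Groups did not overlap in 1 of the 93, beside 1.85% of all probe sets.

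**Figure D5:**
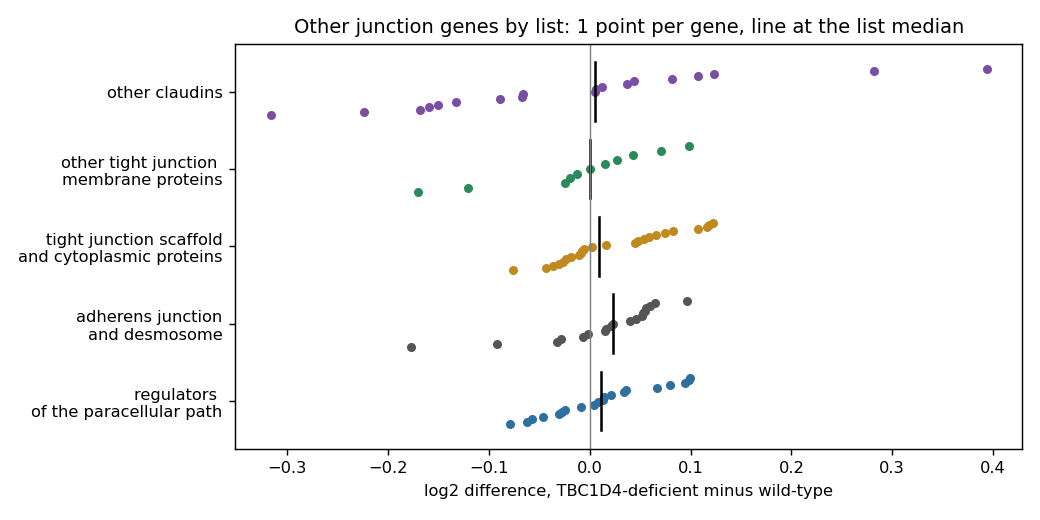
Log2 difference between TBC1D4-deficient and wild-type arrays (horizontal axis) for the 93 other junction genes in 5 lists, 1 point per gene sorted within its list, with a line at the list median. The list medians lie between -0.0002 and 0.0227, and the widest spread, -0.32 to 0.39, is that of the claudins.

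Each sample description starts with a number between 5 and 12, whose meaning the labels do not give. Both genotypes have 2 arrays numbered 5 to 8 and 2 numbered 9 to 12. Between these sets 0 of the 9 genes passed with genotype in the model, beside 0.00868% of all probe sets, and 0 had an unadjusted p below 0.05, while 11.6% of all probe sets did. The smallest unadjusted p was 0.244 (Cldn3, -0.14, -0.39 to 0.11). Within arrays 5 to 8 and 9 to 12 the genotype difference was -0.07 and -0.49 for Cldn2, 0.06 and -0.10 for Cldn8, 0.16 and -0.05 for Cldn4, and 0.23 and 0.03 for Cldn7. For Ocln it was 0.16 and -0.22. With 2 arrays against 2, the genotypes did not overlap for 3 of the 9 genes in arrays 5 to 8 (Cldn4, Cldn7 and Ocln), beside 32.2% of all probe sets, and for 2 in arrays 9 to 12 (Tjp1 and Ocln), beside 29.6%. Separation in both sets with opposite signs was found for 1 of the 9 genes, Ocln, beside 5.42% of all probe sets. The interaction of genotype and set for Ocln was -0.38 (-0.68 to -0.08), with a limma adjusted p of 0.9994, and 0 of the 9 genes passed this test, beside 0% of all probe sets. Ocln was the 1 gene of 9 with an unadjusted p below 0.05 for the interaction, beside 4.51% of all probe sets.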

How the data were processed

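Sorted distal tubule RNA (100 ng per sample) was read on 8 Affymetrix 1-colour arrays, 4 per genotype, grouped by sample title. The authors deposited linear probe set intensities for 28371 probe sets. Affymetrix Power Tools was used, per the submitters' processing notes (version, summarisation and normalization: not given in the sources used here). A normalization that equalises arrays would mask a shift common to most genes. The number of arrays limits the precision.

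Values were taken to log2 with no offset or filter. The genotype test was limma (version 3.58.1, R 4.3.3; lmFit, eBayes, 2-sided, no covariate) over 23039 probe sets with a symbol, with Benjamini-Hochberg adjustment; genes are named from the 21158 probe sets with exactly 1 symbol, the brightest where a gene has several. Correlations used exact permutation over all orders of the arrays (Python 3.11.15). Marker means average markers centred on their own means, claudins left out. Scripts were tested on simulated data.

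Named are Tbc1d4, the 9 genes, the 4 brightest genes and the 4 of smallest p in each of 5 junction lists (100 genes, 93 measured), the 3 genes most like each of the 2 members with the largest SD, and bright markers. The members and lists were chosen with earlier results of these data known. Pairs of members, and other claudins against the proximal tubule mean, were added after values were seen. Alternatives covered scaling, offset, filter, covariates, number sets, the replicate block and leaving out each array.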

Additional observations from a re-analysis of the deposited data

Results flagged for a closer look

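Cldn4 in wild-type replicate 1 stood at 6.59 on the log2 scale, far above the other 3 wild-type arrays at 6.14 to 6.19; the gap to the nearest was 0.885 of the range of the group, above Dixon's critical value for 4 samples. It was the only such sample among 18 groups examined (9 genes in 2 genotypes), and chance flags about 1 in 20 groups.

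For Ocln the genotypes were separated in opposite directions in the arrays numbered 5 to 8 and 9 to 12, with differences of 0.16 and -0.22; 5.42% of all probe sets separated in this way. The interaction was -0.38, and it did not pass (limma adjusted p = 0.9994); 4.51% of all probe sets had an unadjusted p below 0.05 for it.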

How the results depend on the processing

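Under the 23 alternatives run for each of the 9 genes, 0 passed the threshold (smallest limma adjusted p = 0.9972). Of 207 differences, 205 moved by less than 1 SD between replicates; the exceptions were Ocln within arrays 5 to 8 (0.16) and 9 to 12 (-0.22). The sign changed in 21, and did so in none for Cldn2, Cldn3 and Cldn7. Leaving out single arrays moved Cldn2 from -0.48 to -0.06, Cldn3 from -0.22 to -0.05 and Cldn7 from 0.07 to 0.17. Centring each array on its median turned the differences of Cldn8, Tjp1 and Marveld2. The counts of 0 among the 93 other junction genes, between number sets and for the interaction stayed 0 under every alternative run. The difference of Tbc1d4 remained past the threshold in all of its alternatives, and was -2.52 with an offset of 16 before log2.

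Cldn2 and the proximal tubule mean had r from 0.971 to 0.984 when single arrays were left out. The number of relations past the threshold was then 0 to 1: without TBC1D4-deficient replicate 1, r was 0.972 with a Benjamini-Hochberg p of 0.05, which is not below 0.05. With each number set centred, an alternative chosen after seeing the data, r was 0.982. The number of genes whose groups did not overlap was 0 to 1, the 1 being Cldn4 without wild-type replicate 1, where 3.96% of all probe sets did not overlap. The identifiers in the descriptions fall into a lower and a higher range, whose meaning the labels do not give. With this range as a covariate the difference of Cldn2 was -0.01. The higher range holds mostly wild-type samples and the lower mostly TBC1D4-deficient ones. Range and genotype are therefore partly confounded, and their parts cannot be told apart.

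The labels do not state whether replicate numbers pair the samples. Correlations of same-numbered deviations were -0.19 to 0.40 over 4 pairs, and 2 of 8 arrays correlated best with their own number. So few pairs cannot settle whether the samples are paired. With the replicate block 0 members passed, and calls over all probe sets stayed at 1. Depth of signal limits Cldn2, whose lowest array was near the array median.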
